A study of Mus musculus with 4 samples.

Results

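The genes described here are 42 genes of collagen folding, crosslinking and secretion from the endoplasmic reticulum (ER), picked by name out of 32286 listed features, from translocation into the ER to the crosslinking of fibrils. All 42 were found in each matrix, and Ddit3 was listed under 2 identifiers whose UMIs were summed. They were followed in tdTom+ cells sorted from the thoracic-lumbar vertebrae of mice and analyzed by 10x single-cell RNA-sequencing, with 1 library each from control (Prss56Cre/+;R26tdTom/tdTom;Nf1+/+) and mutant (Prss56Cre/Cre;R26tdTom/tdTom;Nf1fl/fl) mice at 3 months and at 12–16 months. Nf1 encodes neurofibromin, a brake on RAS signaling whose gene is mutated in neurofibromatosis type 1. All 4 libraries carried the tdTomato reporter at the R26 locus, which Cre from the Prss56 locus switches on in the neural crest-derived lineage, and the sort was for cells with that reporter. Control mice carried 1 Cre allele and mutant mice 2, so that Cre dose and Nf1 genotype cannot be told apart. The number of animals behind a library is not given in the sources used here.

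Collagens are made on a production line that begins in the ER. The Sec61 channel admits the growing chains, prolyl 4-hydroxylases and lysyl hydroxylases modify them, a complex of P3h1, Crtap and Ppib hydroxylates selected prolines, and the chaperones Serpinh1 (HSP47) and Fkbp10 hold the folded helix until Mia3 (TANGO1) loads it into export vesicles. Outside the cell Bmp1, helped by Pcolce, trims the C-terminal propeptide, and lysyl oxidases crosslink the fibrils. Osteoblasts and osteocytes use this line for type I collagen and chondrocytes for type II, IX and XI, and inherited loss of Serpinh1, Fkbp10, P3h1, Crtap, Ppib, Creb3l1 or Bmp1 causes brittle bone disease.

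Cells were sorted into 4 gates by UMIs (unique molecular identifiers, counts of captured RNA molecules) of a few genes outside the 42. Of 1757 cells that passed the filters, 222 were endplate cells (Sox9 of at least 1 UMI, Zfp804b and Dab1 together at least 3), 1065 were other cartilage cells (Sox9 of at least 1, Acan of at least 3), 37 were mature bone cells (Col1a1 of at least 100), 157 were other bone and stroma cells (Acan of at most 2, Runx2 of at least 1), and 276 fell in no gate. A cell that met several rules was given to the first in this order. The rules used raw UMIs, so deeper cells met the minimum counts more readily. Median UMIs per cell ran from 7614 to 12581 over the libraries in other cartilage, and from 8639 to 13646 in other bone and stroma. They ran from 17606 to 26898 in endplate and from 25841 to 34175 in mature bone, a library of 2 cells left out. Gates on scaled UMIs were 1 of the alternatives. Each library held between 135 and 717 passing cells and between 2154537 and 9429264 UMIs, with no barcode shared between libraries. Levels are given as counts for each 1000000 UMIs of the gate (CPM). Where 4 values follow each other they are those of the control and then the mutant library at 3 months, then the same at 12–16 months, and 3 values for mature bone leave out the mutant library at 3 months. Intervals cover counting error only.

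The gates were described by marker lists, of which the cartilage list holds Sox9 and Acan and the bone list Col1a1 and Runx2. These genes also set the gates, so the sums are in part given by the rules and are no independent check. The 7 cartilage markers summed to 14198–17791 CPM in other cartilage, 17465–25332 CPM in endplate and 234–1220 CPM in mature bone, whereas the 8 bone markers summed to 155661–226469 CPM in mature bone and 445–1351 CPM in other cartilage. Mature bone held 14, 2, 12 and 9 cells, and 1 of the 2 cells of the 3-month library labelled mutant was called a doublet, so that library did not enter the tests on mature bone. No UMI of the immune marker list was found in mature bone. Other bone and stroma cells were rich in Cxcl12, a gene of marrow stroma, at 7869, 2132, 10920 and 10178 CPM. It stood apart in the 3-month library labelled mutant, where 23 of 37 cells carried a UMI of the leukocyte gene Ptprc, against 1 of 32, 2 of 14 and 7 of 74 in the other libraries, and Lyz2 reached 644 CPM. Nf1 itself was at 131, 149.7, 147 and 125 CPM over all passing cells. These 3′ counts do not report the loss of an internal exon, so libraries are named by their labels throughout.

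Together the 42 genes took between 0.759% and 1.06% of the UMIs of the cartilage gates and between 0.851% and 1.34% of those of mature bone, the 2-cell library left out. The map of levels by gate and library shows that most of the contrast lay between gates rather than between libraries of a gate. Serpinh1, Sec61b, Creb3l1, Pcolce, Bmp1 and Lox were bright in mature bone. Pcolce2, P3h2 and P4ha2 were bright in cartilage, and the general ER chaperones showed no such split.

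**Figure D1:**
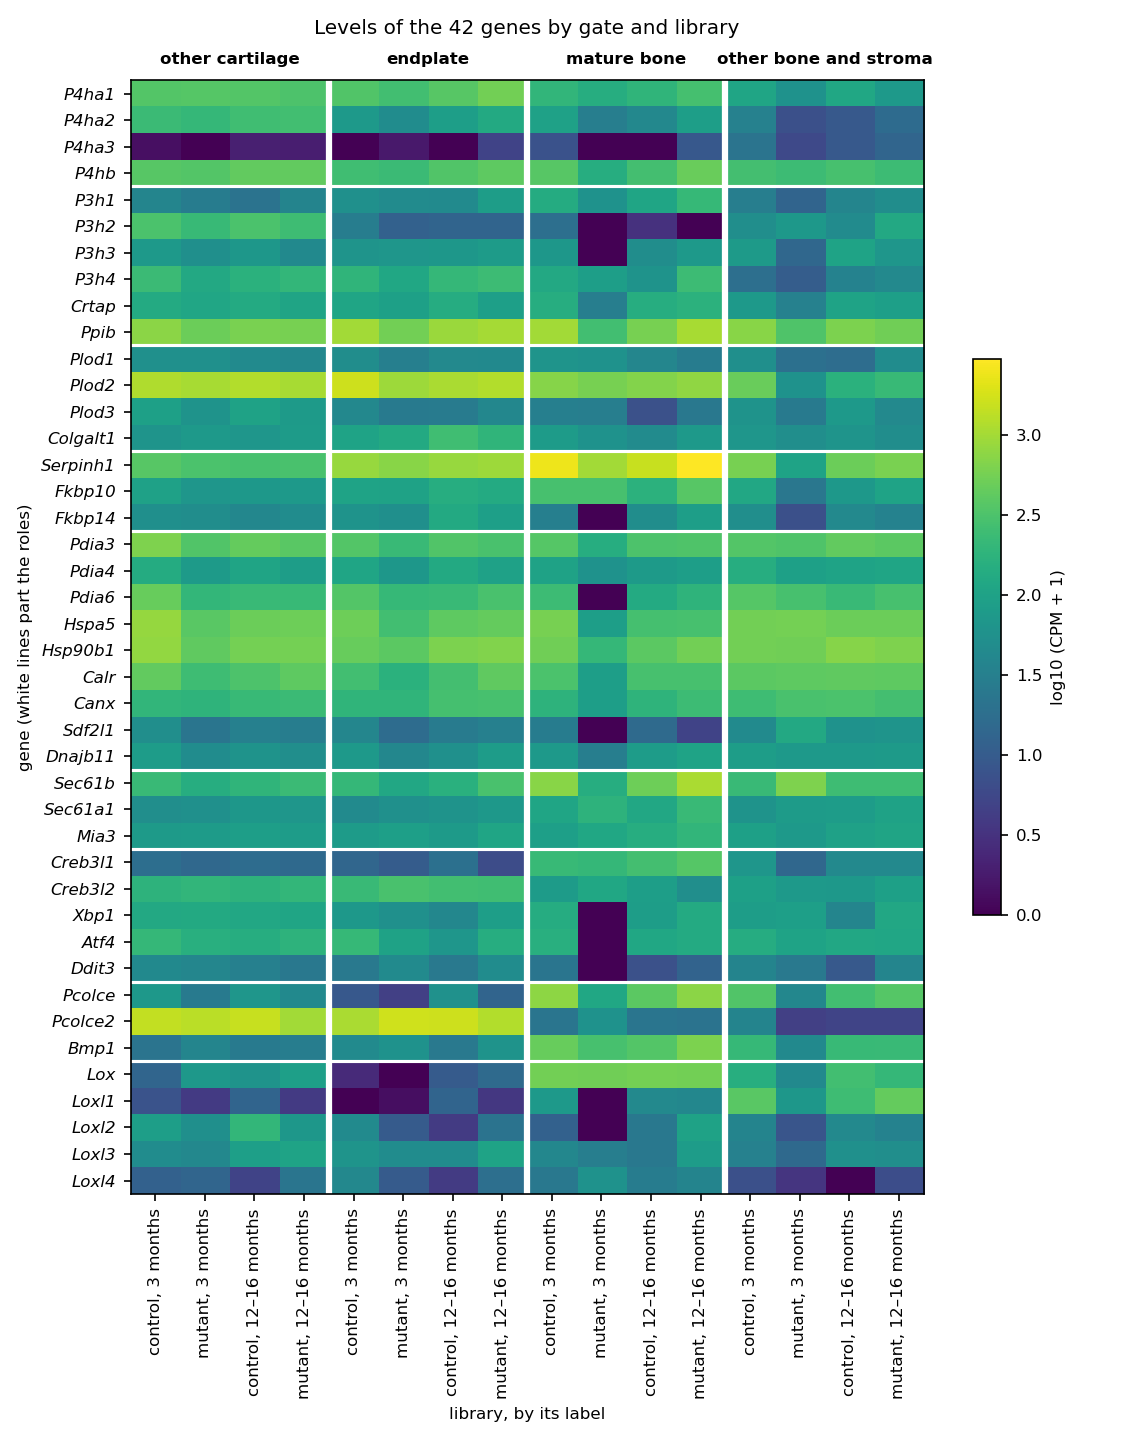
Level of each of the 42 genes (rows, parted by role) in each library (columns, by label) of each gate, as log10 of CPM plus 1. Serpinh1 lay between 1528 and 2987 CPM in the 3 mature bone libraries tested and between 289 and 376 CPM in other cartilage, and the column of mature bone in the 3-month mutant library rests on 2 cells.

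To ask how the production line differs between bone and cartilage of one lineage, each gate was compared with other cartilage in a single edgeR quasi-likelihood fit over UMI sums per library and gate, with the library as a block and p-values adjusted over 11021 genes. Of the 42 genes, 41 could be tested, and P4ha3, a catalytic prolyl 4-hydroxylase subunit, was too low, with at most 9 UMIs in a sum. In mature bone 11 genes were higher and 5 lower than in other cartilage, where 10.9% of all tested genes were higher and 15.5% lower. The median log2 fold change of the 41 genes was -0.02, against -0.12 for all genes. Their spread was wide, from -5.83 for Pcolce2 to 4.19 for Creb3l1. Calls below hold under every alternative tried unless said otherwise. Of the genes that did not pass, Ppib, Dnajb11, Ddit3, Loxl2 and Loxl4 passed under at least 1 alternative, and bracketed values are log2 fold changes.

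Collagen chaperones were higher in bone. Serpinh1 (chr7:99345376-99353239, GRCm38), the collagen-specific chaperone HSP47, stood at 376, 311, 289 and 300.2 CPM in other cartilage and at 2429, 1528 and 2987 CPM in the 3 mature bone sums. No bone library overlapped a cartilage library, and the log2 fold change was 2.77 ± 0.40 SE, adjusted p = 1.68e-04, or 6.84-fold. Fkbp10, a prolyl isomerase that works with it, went from 96.7, 66.0, 70.4 and 72.8 CPM to 288, 172 and 377 CPM (1.79 ± 0.34 SE, adjusted p = 0.0013). Both genes are needed for strong bone. The related isomerase Fkbp14 did not pass (0.05 ± 0.46 SE, adjusted p = 0.96).

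Prolyl 3-hydroxylases separated by isoform. P3h1, the collagen prolyl 3-hydroxylase, was at 37.7, 27.8, 20.1 and 36.4 CPM in other cartilage and 137, 108 and 214 CPM in mature bone, so that the groups did not overlap (log2 fold change 2.29 ± 0.28 SE, adjusted p = 3.86e-05). P3h2, its paralog, ran the other way, from 306, 220.1, 309 and 251 CPM in other cartilage to 17.4, 2.13 and 0 CPM in mature bone (-5.14 ± 0.60 SE, adjusted p = 2.65e-05). Only 8, 1 and 0 UMIs of P3h2 were counted in those 3 bone sums. This call was lost when the mature bone rule was applied before the cartilage rules, and the log2 fold change was then -1.85 (adjusted p = 0.13). That setting moved 2 cells that met both rules, and most of their P3h2 UMIs lay in 1 of them. The cell of the 12–16-month control library held 109 P3h2 UMIs and that of the 3-month control library 2. The partners of P3h1 did not pass, with Crtap (0.38) and Ppib (0.49), nor did P3h3 (0.07) and P3h4 (-0.54 ± 0.32 SE, adjusted p = 0.24). Of the prolyl 4-hydroxylase subunits tested, only P4ha2 passed. It fell from 233, 204, 254 and 262 CPM to 97.6, 40.4 and 87.3 CPM (-1.76 ± 0.34 SE, adjusted p = 0.00164). P4ha1 (-0.63 ± 0.28 SE, adjusted p = 0.13) and the shared subunit P4hb (-0.02 ± 0.24 SE, adjusted p = 0.97) did not pass.

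Of the lysyl hydroxylases, which prepare lysines for sugars and crosslinks, only Plod3 passed, and it fell. Its 92.7, 59.1, 98.6 and 76.1 CPM in other cartilage became 30.4, 6.38 and 23.8 CPM in mature bone (-2.07 ± 0.38 SE, adjusted p = 9.92e-04). Plod2, the telopeptide lysyl hydroxylase, was abundant in both gates, at 1133, 1041, 1171 and 1037 CPM in other cartilage and 701, 667 and 801 CPM in mature bone, and did not pass (-0.64 ± 0.40 SE, adjusted p = 0.27). Plod1, which acts on the helix, gave -0.09 ± 0.34 SE, adjusted p = 0.89, and the galactosyltransferase Colgalt1 (0.06) did not pass either.

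Entry into and exit from the ER rose while the general chaperones between them did not pass. The channel subunit Sec61b was at 225, 147, 186 and 234 CPM in other cartilage and 722, 506 and 1083 CPM in mature bone (2.09 ± 0.39 SE, adjusted p = 0.00121). Sec61a1, the pore itself, was at 51.7, 53.9, 68.4 and 66.7 CPM and 111, 121 and 226 CPM (1.42 ± 0.20 SE, adjusted p = 1.15e-04). Libraries of the gates did not overlap for either subunit. Mia3, the cargo receptor for large collagen vesicles, gave 0.89 ± 0.22 SE, adjusted p = 0.00872, a call lost without either 12–16-month library and without the filter on low counts. None of the 9 general ER chaperones and isomerases passed, although Dnajb11 did with gates on scaled UMIs (0.65, adjusted p = 0.0328). A p that misses the threshold does not show that their levels were equal. These proteins serve all secreted cargo. Their log2 fold changes ran from Sdf2l1 (-0.82 ± 0.55 SE, adjusted p = 0.31) to Dnajb11 (0.60 ± 0.25 SE, adjusted p = 0.0956), with Hspa5 (-0.50 ± 0.27 SE, adjusted p = 0.2), Pdia6 (-0.47), Pdia3 (-0.34), Hsp90b1 (-0.22), Pdia4 (-0.17), Calr (-0.17) and Canx (0.04) in between. Hspa5 (BiP), the main ER Hsp70, was at 855, 383, 498 and 513 CPM in other cartilage and 579, 281 and 286 CPM in mature bone.

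The membrane-bound transcription factors of secretory cells divided in the same comparison. Creb3l1 (OASIS, chr2:91982328-92024502), which drives secretory genes in osteoblasts, was at 16.9, 14.0, 16.1 and 14.2 CPM in other cartilage and 217, 274 and 365 CPM in mature bone (4.19 ± 0.36 SE, adjusted p = 2.35e-06), the largest rise among the 41 genes. Its paralog Creb3l2 (BBF2H7), the chondrocyte counterpart, was at 176, 190.4, 176 and 200.5 CPM against 80.2, 87.1 and 51.6 CPM (-1.13 ± 0.26 SE, adjusted p = 0.0048), a call lost without the 12–16-month mutant library (adjusted p = 0.0751). The unfolded protein response factors did not pass, with Xbp1 (0.09), Atf4 (-0.25) and Ddit3 (-1.15 ± 0.46 SE, adjusted p = 0.0818).

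Of the extracellular steps, 5 of 8 genes differed. Pcolce2 was at 1431, 1314, 1507 and 984 CPM in other cartilage and 21.7, 21.3 and 19.8 CPM in mature bone (-5.83 ± 0.57 SE, adjusted p = 7.71e-06), and the log2 fold change was -3.87 with the mature bone rule first. Pcolce, its paralog and like it an enhancer of procollagen C-proteinase, went from 69.2, 26.5, 65.4 and 43.0 CPM to 766, 397 and 738 CPM (3.32 ± 0.52 SE, adjusted p = 2.99e-04). The 2 paralogs thus ran in opposite directions, with no overlap of libraries for either. Bmp1 (chr14:70474558-70520234), the C-proteinase itself, went from 21.1, 37.6, 26.2 and 28.8 CPM to 459.8, 353 and 623 CPM (4.15 ± 0.48 SE, adjusted p = 2.37e-05). Lysyl oxidases oxidize the lysines that join neighbouring collagen molecules. Among them Lox rose from 12.7, 70.9, 60.4 and 90.3 CPM to 538, 557 and 539 CPM (3.28 ± 0.74 SE, adjusted p = 0.00432), a call lost when either control library was left out (adjusted p up to 0.0651). Loxl1, which also acts on elastin, gave 2.99 ± 0.54 SE, adjusted p = 9.92e-04, from 6.67, 2.94, 12.1 and 2.84 CPM to 73.7, 42.5 and 39.7 CPM. Loxl2 (-1.50 ± 0.67 SE, adjusted p = 0.12), Loxl3 (-0.63) and Loxl4 (1.44) did not pass. In the 12–16-month libraries 90.9% and 96.0% of the Loxl2 UMIs of mature bone came from 1 cell.

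**Figure D2:**
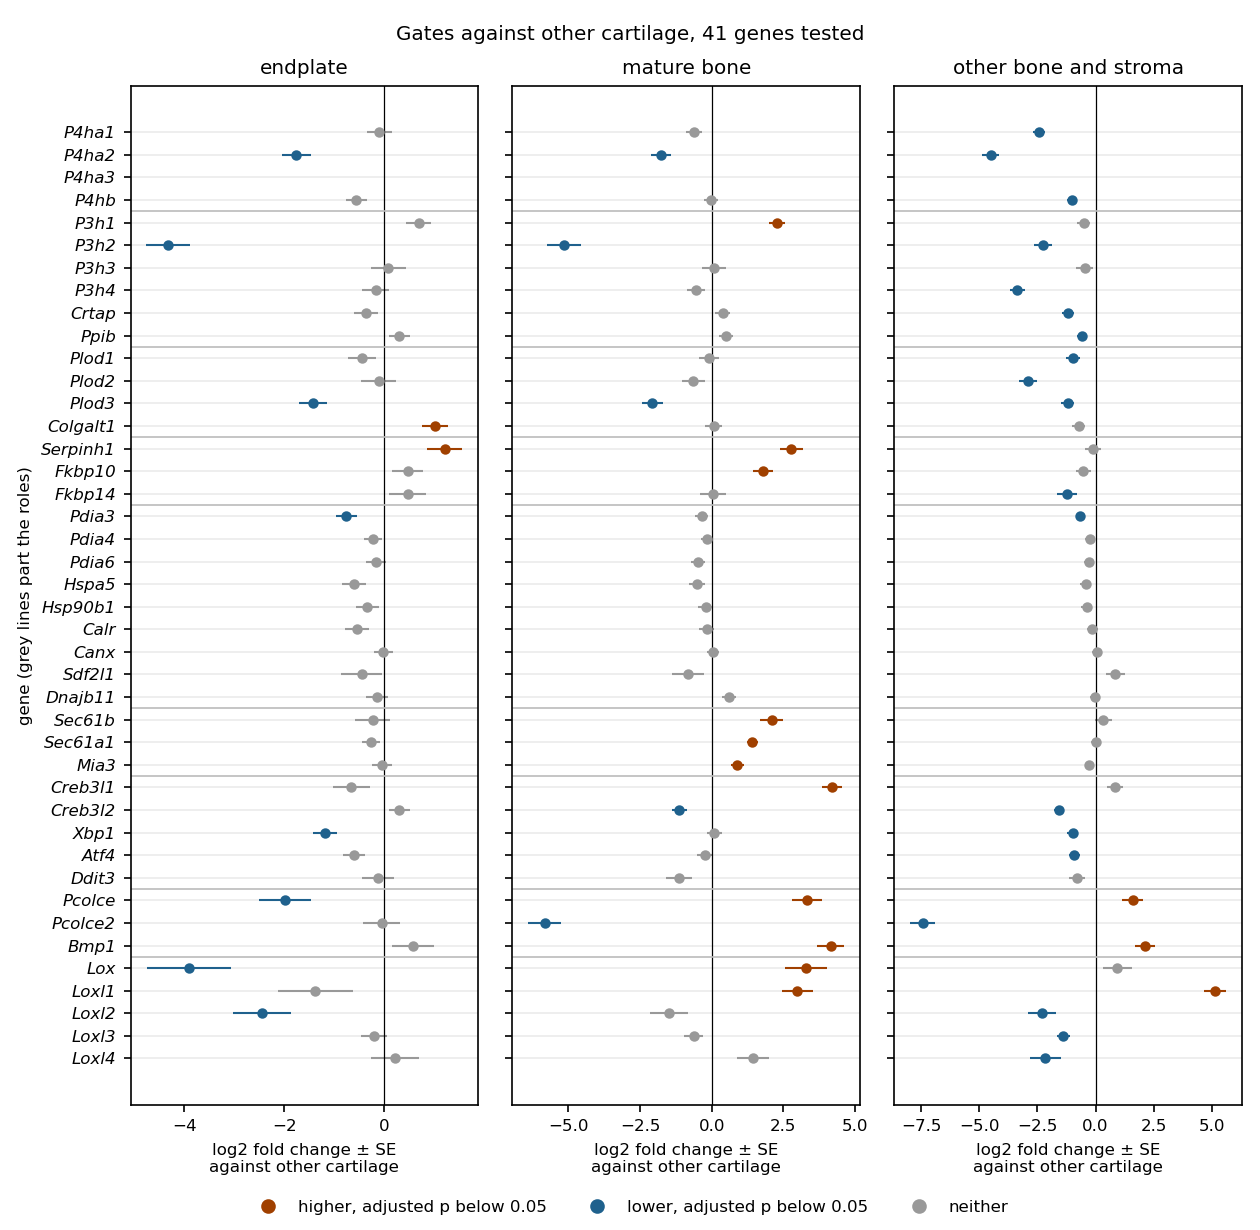
Log2 fold change of each of the 41 tested genes against other cartilage in endplate, mature bone, and other bone and stroma cells (points, with bars of 1 SE), from the edgeR fit over 15 sums of the 4 libraries; each panel has its own scale. In mature bone the 9 general ER chaperones lie between -0.82 and 0.60, while Creb3l1, Bmp1, Pcolce, Lox and Loxl1 lie between 2.99 and 4.19.

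Other genes of the pathway, in lists written by name, were read from the same fit. They are read beside the shares of all genes given above, 10.9% higher and 15.5% lower in mature bone. Of 26 other translocation and vesicle export genes, 16 were higher in mature bone and 1, Tmed10 (-0.66), was lower. The higher genes were led by Ssr2 (1.90 ± 0.23 SE, adjusted p = 3.34e-05), of the translocon-associated complex, and Ssr3 (1.57), and the smallest rise was that of the signal peptidase subunit Spcs1 (0.71). Among 18 tested of 19 other ER folding genes, 5 were higher and 4 lower. The isomerases Fkbp11 (5.04 ± 0.35 SE, adjusted p = 7.80e-07) and Ppic (2.86) led the rise, and the galactosyltransferase Colgalt2 (-6.35) and the oxidase Ero1l (-1.64) were the lowest. Of 9 tested genes among 11 stress sensors and degradation genes, Atf6 was higher (0.78) and Ppp1r15a (-2.25) and Herpud1 (-1.20) were lower. In 4 tested of 5 procollagen proteinases and partners, Adamts2, the N-proteinase of type I procollagen, gave 6.35 ± 0.44 SE, adjusted p = 7.80e-07, and Adamts14 (3.38) and Sparc (1.48) were also higher. Of the 12 client collagens 6 were higher and 5 lower. Col1a1 (11.26), which set the gate, led with Col1a2 (7.81), and Col10a1 (-13.37) and Col9a1 (-10.54) were lowest. In endplate cells, where 7.26% of all genes were higher and 8.69% lower, the same lists gave 5 higher and 4 lower client collagens, 1 and 4 folding genes, 0 and 1 export genes, 0 and 1 stress genes, and no proteinase or partner. In other bone and stroma, where 17.4% were higher and 18.4% lower, they gave 2 and 7 client collagens, 0 and 8 folding genes, 0 and 15 export genes, 0 and 2 stress genes, and 1 and 1 proteinases or partners.

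Set against their cargo, the same genes looked different. The 12 client collagens made up 15.0–23.9% of the UMIs of mature bone and 0.734–0.816% of those of other cartilage. The mature bone ranges that follow leave out the 2-cell library. For each 1000 client collagen UMIs there were 6.40–16.2 Serpinh1 UMIs in mature bone, 38.2–51.2 in other cartilage, 39.1–55.7 in endplate and 124–205 in other bone and stroma. All 42 genes together gave 35.6–77.7 UMIs per 1000 client collagen UMIs in mature bone and 969–1448 in other cartilage, with no overlap. Col1a1 defined the mature bone gate, so these ratios describe it and were not tested.

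Endplate cells differed from other cartilage at fewer of the genes. Of the 41, 2 were higher and 8 lower, again against 7.26% and 8.69% of all genes. Cells at the endplate line the border of disc and vertebra. Serpinh1 was higher in each library, at 876, 726, 874 and 934 CPM (1.22 ± 0.35 SE, adjusted p = 0.0284), and Colgalt1 at 102, 128, 255 and 186 CPM against 61.3, 73.8, 66.4 and 79.0 CPM (1.03 ± 0.26 SE, adjusted p = 0.0147). Both calls were lost without either 12–16-month library and with gates set on UMIs scaled to 10000 per cell, and that of Serpinh1 also without the 3-month control library. P3h2 was 20.1-fold lower, at 29.0, 11.1, 12.0 and 12.0 CPM (-4.33 ± 0.44 SE, adjusted p = 3.90e-05), although 4 of 4 and 77.8% of its UMIs in the 12–16-month libraries came from 1 cell each. P4ha2 (-1.76 ± 0.29 SE, adjusted p = 9.29e-04), Plod3 (-1.42 ± 0.28 SE, adjusted p = 0.00341), Xbp1 (-1.18 ± 0.24 SE, adjusted p = 0.00433) and Lox (-3.91 ± 0.84 SE, adjusted p = 0.00576) were also lower under every alternative.

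Lox was nearly absent there, with 1, 0, 3 and 11 UMIs in the 4 libraries, and its log2 fold change ran from -5.12 to -2.65 as 1 of the mutant libraries was left out. Outside the calls, P4hb, P3h1, Hspa5, Calr and Atf4 passed under at least 1 alternative. The lower calls of Pdia3 (-0.75), Pcolce (-1.99) and Loxl2 (-2.44) each ended under at least 1 alternative: Pdia3 without TMM, with sums of any number of cells and without any library but the 3-month mutant, Pcolce without any library but the 12–16-month control, and Loxl2 without the 12–16-month control or with the mature bone rule first. Of the other 31 genes the log2 fold changes lay between -1.37 (Loxl1) and 0.70 (P3h1). They held P4hb (-0.55), P4ha1 (-0.09), Ppib (0.31), Crtap (-0.36), P3h3 (0.09), P3h4 (-0.16), Plod1 (-0.44), Plod2 (-0.10), Fkbp10 (0.48), Fkbp14 (0.48), Hspa5 (-0.60), Calr (-0.54), Sdf2l1 (-0.44), Hsp90b1 (-0.33), Pdia4 (-0.21), Pdia6 (-0.15), Dnajb11 (-0.14) and Canx (-0.01), Sec61b (-0.23), Sec61a1 (-0.25) and Mia3 (-0.04), the factors Creb3l1 (-0.65), Creb3l2 (0.31), Atf4 (-0.60) and Ddit3 (-0.12), and Bmp1 (0.59), Pcolce2 (-0.05), Loxl3 (-0.19) and Loxl4 (0.23). Without TMM factors, 1255 of all genes were higher and 763 lower in place of 800 and 958.

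In other bone and stroma more of the line was lower than higher, cartilage being the reference. Of the 41 genes 3 were higher and 19 lower, against 17.4% and 18.4% of all genes, and the median log2 fold change of the 41 was -0.61 where that of all genes was 0.00. Without TMM factors all genes split 3408 higher and 1281 lower in place of 1923 and 2026, and 5 and 13 of the 41 passed. Loxl1 rose most, from 6.67, 2.94, 12.1 and 2.84 CPM to 384, 68.9, 246 and 453 CPM (5.14 ± 0.48 SE, adjusted p = 2.72e-06). Bmp1 (2.12 ± 0.43 SE, adjusted p = 0.00158) and Pcolce (1.60 ± 0.46 SE, adjusted p = 0.0143) rose with it, the latter call being lost without the 3-month control or the 12–16-month mutant library.

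Pcolce2 and the enzymes that modify the chains led the fall. Pcolce2 was at 35.7, 3.62, 4.17 and 4.18 CPM (-7.43 ± 0.54 SE, adjusted p = 5.27e-07), P4ha2 at 32.7, 6.04, 8.34 and 15.3 CPM (-4.52 ± 0.36 SE, adjusted p = 1.01e-06) and P3h4, a partner of Plod1 in lysyl hydroxylation, at 17.9, 9.67, 33.3 and 41.8 CPM (-3.37 ± 0.34 SE, adjusted p = 4.60e-06). Plod2 (-2.91 ± 0.39 SE, adjusted p = 5.10e-05) and P4ha1 (-2.43 ± 0.27 SE, adjusted p = 1.12e-05) followed. P3h2 (-2.25), Creb3l2 (-1.58), Loxl3 (-1.38), Plod3 (-1.21), Crtap (-1.19) and P4hb (-1.02) were also lower under every alternative. The calls of Loxl2 (-2.32), Loxl4 (-2.16), Fkbp14 (-1.22), Xbp1 (-0.99), Plod1 (-0.97), Atf4 (-0.92), Pdia3 (-0.65) and Ppib (-0.61) each ended under at least 1. That of Loxl2 ended with the mature bone rule first, and the other 7 when 1 or more of the libraries was left out. The calls of Ppib, Fkbp14 and Pdia3 ended under most of the alternatives.

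The cells with Ptprc in the 3-month mutant library bore on this gate. Serpinh1 there was at 103 CPM against 580.4, 488 and 601 CPM in the other libraries, Pcolce at 39.9 CPM against 336, 263 and 358 CPM, and Sec61b at 633 CPM against 226, 246 and 249.7 CPM. Leaving out all cells with Ptprc, an alternative added after the data were seen, gave 6 higher genes in place of 3. Lox (1.45, adjusted p = 0.0297) and Creb3l1 (1.33, adjusted p = 0.001) were among them, and leaving out that library gave 5. The shares of all genes in these settings are not given. Without these cells Loxl1 stood at 5.82, Bmp1 at 2.72, Pcolce at 2.25 and Plod2 at -2.29. Sec61b turned in direction, from 0.34 ± 0.37 SE, adjusted p = 0.52, to -0.51, adjusted p = 0.0497. The remaining genes tested were P3h1 (-0.51), P3h3 (-0.47), Colgalt1 (-0.73), Serpinh1 (-0.11), Fkbp10 (-0.52), Pdia4 (-0.25), Pdia6 (-0.29), Hspa5 (-0.43), Hsp90b1 (-0.38), Calr (-0.15), Canx (0.04), Sdf2l1 (0.85), Dnajb11 (-0.01), Sec61a1 (0.00), Mia3 (-0.27), Creb3l1 (0.84), Ddit3 (-0.78) and Lox (0.94), none past the threshold with all cells.

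The mutant and control labels were then compared within a gate and age. With 1 library each there was no replicate and no test, so each gene is given as the ratio of mutant to control CPM with a 95% interval for counting error in brackets, and a gene counted as higher or lower at 1.5-fold, among genes with at least 50 UMIs over both libraries. Differences between mice cannot be told apart from the label here, and in such sums a change in the kinds of cells inside a gate cannot be told apart from a change of RNA per cell.

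At 3 months the general ER chaperones were lower in other cartilage of the library labelled mutant. Of 41 genes measured, 2 were higher and 15 lower, against 10.4% and 10.8% of all genes. The lower genes included 8 of the 9 general chaperones and isomerases. Hspa5 was at 855 CPM in the control library and 383 CPM in the mutant library, a ratio of 0.448 (0.421–0.477). Hsp90b1 (GRP94) was at 823 and 428 CPM, a ratio of 0.520 (0.490–0.552), and the disulfide isomerase Pdia6 at 467 and 202 CPM, a ratio of 0.433 (0.397–0.471). Sdf2l1 (0.421, 0.319–0.549), Pdia3 (0.538, 0.503–0.575), Pdia4 (0.564, 0.488–0.649), Dnajb11 (0.579, 0.480–0.695) and Calr (0.584, 0.539–0.632) were lower too. Canx, the membrane-bound lectin chaperone, gave 0.952 (0.863–1.05).

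The remaining steps of the line were mixed. Outside the chaperones, Pcolce (0.382, 0.299–0.484), Loxl1 (0.440, 0.191–0.903, on 51 and 9 UMIs), P3h4 (0.540, 0.483–0.604), Loxl2 (0.614, 0.514–0.729), Plod3 (0.638, 0.539–0.752), Sec61b (0.655, 0.590–0.728) and Ppib (0.658, 0.622–0.697) were lower. The 2 higher genes were Lox, at 12.7 and 70.9 CPM or 5.58 (4.37–7.17), and Bmp1 (1.78, 1.39–2.28). The genes with the next largest ratios were Colgalt1 (1.21), Loxl4 (1.12) and Creb3l2 (1.08). The helix chaperone Serpinh1 (0.827, 0.768–0.890), the abundant hydroxylase Plod2 (0.919, 0.882–0.957), P4hb (0.936, 0.871–1.00) and P4ha1 (1.01, 0.940–1.08) stayed within 1.5-fold. With every cell weighted equally 11 were lower in place of 15, Loxl1 moved to 0.754 and Loxl2 to 0.773, and the 8 chaperones lay between 0.465 (Pdia6) and 0.656 (Calr). The share of all genes lower with that weighting is not given.

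**Figure D3:**
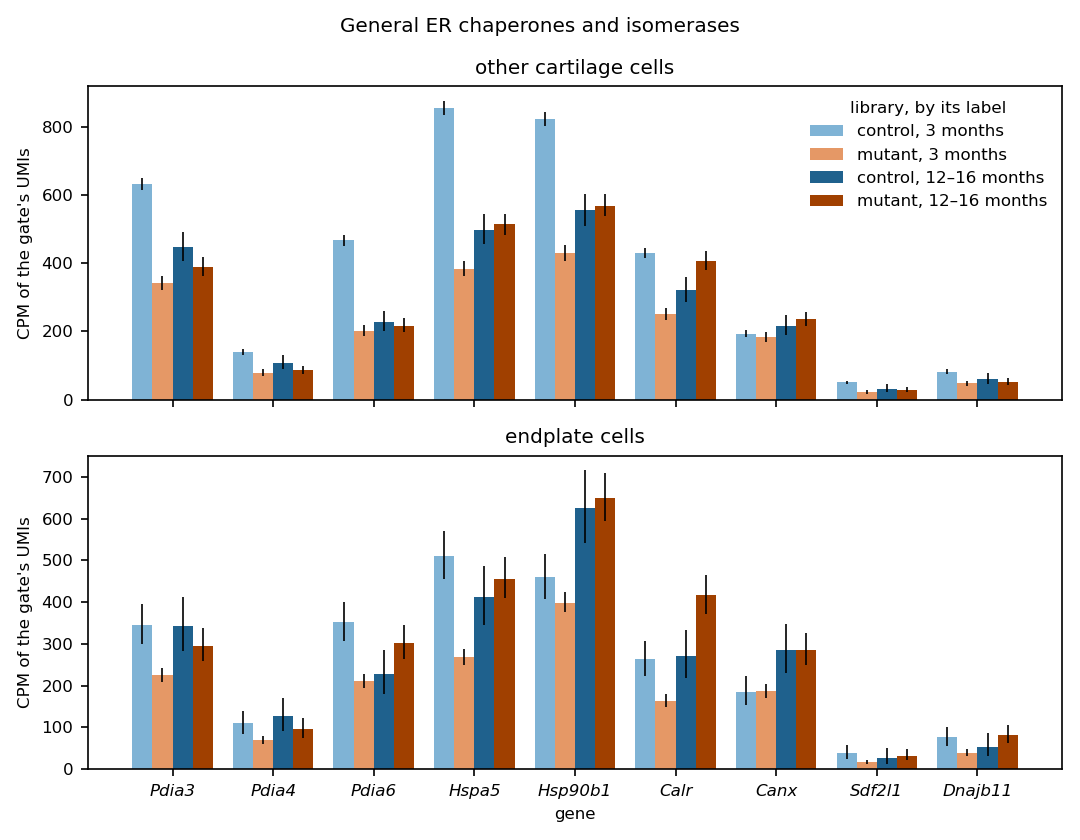
CPM of the 9 general ER chaperones and isomerases in other cartilage (top) and endplate (bottom) cells of each library, by label, with 95% Poisson intervals of the count. In other cartilage Hspa5 stood at 855 CPM in the 3-month control library and between 383 and 513 CPM in the other 3.

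The plot of chaperones by library shows that the 3-month control library was the highest in other cartilage for every one of them but Canx, which was at 192, 183, 216 and 235 CPM. There Hspa5 ranged over 855, 383, 498 and 513 CPM and Pdia6 over 467, 202, 228 and 217 CPM, and the 12–16-month control library lay closer to the mutant libraries than to the 3-month control. The 3-month mutant library was the lowest in other cartilage for every one of the chaperones. In endplate that library was likewise the lowest for Hspa5 (511, 268, 412 and 456 CPM) and Hsp90b1 (460, 399, 625 and 650 CPM). The same held there for Calr, Pdia3, Pdia4, Pdia6 and Dnajb11, but not for Canx (185, 186, 285 and 286 CPM). The 3-month control library was the highest in endplate for Hspa5, Pdia3 and Pdia6, but not for the other chaperones measured there at both ages. Sdf2l1 had too few UMIs to be measured there at 12–16 months. The 3-month control library had the highest level of immediate-early and heat-shock genes that tissue dissociation can raise, the 11 genes of that list summing to 22035, 16043, 17963 and 13857 CPM in other cartilage and 17428, 10492, 7928 and 8532 CPM in endplate. Their part in the result was not tested.

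In endplate cells at 3 months, 2 of 36 measured genes were higher and 17 lower, where 18.5% and 14.3% of all genes were. Of the general chaperones 7 of 9 were lower, Sdf2l1 (0.409, 0.243–0.702), Dnajb11 (0.522, 0.367–0.750) and Hspa5 (0.524, 0.459–0.599) most, while Hsp90b1 (0.869, 0.762–0.993) and Canx (1.00, 0.819–1.24) stayed within 1.5-fold. The smallest ratios were those of Loxl2 (0.199, 0.111–0.354), Loxl4 (0.223, 0.123–0.404), Sdf2l1, Atf4 (0.469, 0.380–0.582) and Dnajb11. The lysyl hydroxylases were lower as well, with Plod2 at 1606 and 932 CPM (0.580, 0.539–0.625), Plod1 (0.618, 0.406–0.965) and Plod3 (0.633, 0.396–1.04), and so were P3h4 (0.628, 0.506–0.784), P4ha2 (0.644, 0.458–0.922), Ppib (0.548, 0.499–0.603) and Sec61b (0.590, 0.479–0.729). In the control library 1 cell held 68.0% of the Loxl4 UMIs. The largest were Ddit3 (1.84, 1.07–3.39), Pcolce2 (1.55, 1.43–1.68), Creb3l2 (1.36), Bmp1 (1.28) and Colgalt1 (1.26), and Ddit3 moved to 1.22 with cells weighted equally. Gates on scaled UMIs left 9 lower genes in place of 17, and the share of all genes with those gates is not given.

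An ER stress response element, through which ATF6 and its partners switch on chaperone genes, joins CCAAT to CCACG across 9 bases. It was searched for on both strands of RefSeq promoter windows (GRCm38.p6, 250 bases before to 50 after a start site). Windows were found for 31 of the 42 genes, and 5 of these held the element, that is 16.1%, against 0.137% of 27025 genes with a window. The element was picked as one of chaperone genes, so this excess is no independent finding. All 5 were among the 9 general chaperones: Hspa5, Calr, Hsp90b1, Canx and Pdia6. Their copies are shown because they are what these genes share, with the fixed bases in capitals and each read 5′ to 3′ on the strand that carries it:
Hspa5 (plus strand, chr2:34772025-34772043): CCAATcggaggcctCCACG
Calr (plus strand, chr8:84847075-84847093): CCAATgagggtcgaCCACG
Hsp90b1 (minus strand, chr10:86705638-86705656): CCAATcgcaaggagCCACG
Hsp90b1 (plus strand, chr10:86705533-86705551): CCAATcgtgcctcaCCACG
Canx (minus strand, chr11:50325800-50325818): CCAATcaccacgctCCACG
Pdia6 (plus strand, chr12:17266491-17266509): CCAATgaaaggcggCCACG

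The CCACG end of the copies lay from 47 (Hspa5) to 194 (1 of the 2 copies of Hsp90b1) bases before the start site of the RefSeq window. In the GENCODE annotation Hspa5 starts farther upstream, at chr2:34771970-34777547, and its element lies after that start. Of the genes with the element, Hspa5, Calr and Pdia6 were lower by 1.5-fold at 3 months in both cartilage gates of the library labelled mutant. Hsp90b1 was lower in other cartilage alone, and Canx stayed within 1.5-fold of the control in both gates. Sdf2l1, Dnajb11, Pdia3 and Pdia4 were lower without an exact copy in their window. A part of the element in these ratios was not tested. CCACG alone was in 67.7% of the 31 genes and 35.5% of all genes. Bmp1, Creb3l1, Fkbp10, Lox, Loxl1, Loxl2, Loxl3, P3h2, P3h4, Plod2 and Sec61a1 had no window in the table. A match is a description of letters and not a site of binding, and no match says only that these letters are not in the window.

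At 12–16 months the chaperone difference was not seen in other cartilage. Of 38 genes measured 1 was higher and 4 lower, against 8.82% and 9.36% of all genes, and none of the 9 general chaperones passed 1.5-fold. Their ratios ran from 0.795 (0.622–1.02) for Pdia4 to 1.27 (1.12–1.45) for Calr, with Hspa5 at 1.03 (0.926–1.15). The 5 smallest ratios were Loxl2 (0.349, 0.280–0.435), P3h3 (0.636, 0.460–0.883), Pcolce2 (0.653, 0.611–0.698), Pcolce (0.658, 0.473–0.919) and Ddit3 (0.758). The 5 largest were P3h1 (1.81, 1.09–3.12), Lox (1.496), Calr, Sec61b (1.26) and Fkbp14 (1.21).

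Several of these ratios rested on 1 cell. The 12–16-month control library held a cell with 71954 UMIs, among them 177 of Col1a1, 109 of Acan and 27 of Sox9, that met both the cartilage and the mature bone rule and was not called a doublet. It carried 71.3% of the Loxl2 UMIs of that library's other cartilage, 56.7% of Loxl3, 40.0% of Pcolce and 35.5% of P3h2, for 7.24% of all UMIs. With that cell counted as mature bone, the ratio of Loxl2 became 1.13 (0.824–1.57), that of Pcolce 1.02 (0.692–1.52), that of P3h3 0.743 (0.525–1.06) and that of Loxl3 2.40 (1.70–3.47), where Loxl3 had been at 1.12. Pcolce2, which is abundant in cartilage, was at 0.645 (0.602–0.691), with 1507 and 984 CPM in the control and mutant libraries. P3h1 rested on 20 and 77 UMIs and became 1.01 with cells weighted equally.

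Endplate cells at 12–16 months leaned the other way from 3 months. Of 30 genes measured, 8 were higher and 1 lower, against 14.4% and 10.1% of all genes, from 12 control and 38 mutant cells. The largest ratios were Bmp1 (2.51, 1.17–6.15, on 8 and 45 UMIs), Xbp1 (2.23, 1.22–4.40), Atf4 (2.21, 1.39–3.67), Loxl3 (2.17, 1.26–3.98) and Sec61b (1.89, 1.40–2.60). P3h1 (1.87), Calr (1.54, 1.21–1.97) and Dnajb11 (1.51) were also past 1.5-fold. The smallest were Crtap (0.635, 0.431–0.942), Fkbp14 (0.721), Pcolce2 (0.723, 0.649–0.806), Colgalt1 (0.728) and Pdia4 (0.764). Gates on scaled UMIs left 3 higher genes in place of 8, again without the share of all genes.

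Across the ages, 2 genes of the 38 measured at both were lower in other cartilage each time, Pcolce and Loxl2, against 1.49% of 7250 genes, and none was higher, against 2.55%. Both calls at 12–16 months ended when the 1 cell above was counted as bone. With the mature bone rule first Lox was higher at both ages, at 6.39 (4.95–8.33) and 1.73 (1.26–2.43), and with cells weighted equally its ratios were 7.66 and 2.41, while its 12–16-month ratio of 1.496 lay just under the limit. In endplate no gene of 30 passed in the same direction at both ages, where 1.86% of 3708 genes were higher at both and 0.836% lower.

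**Figure D4:**
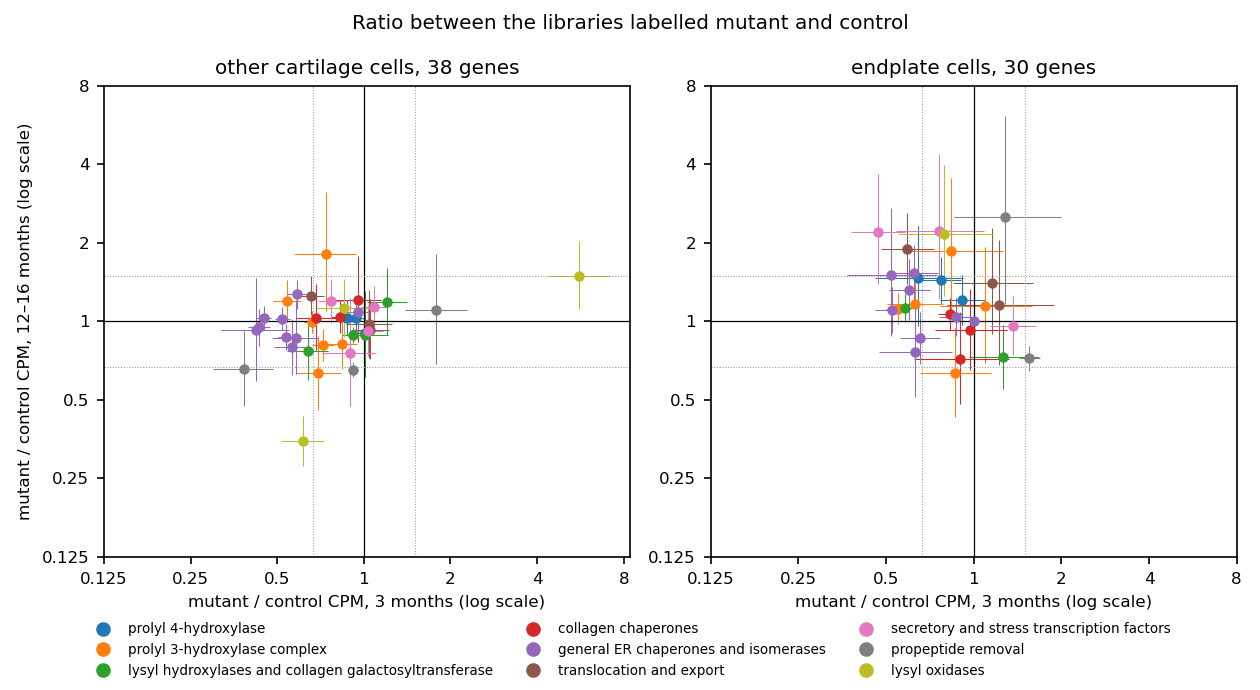
Ratio of mutant to control CPM at 3 months (horizontal) and at 12–16 months (vertical) in other cartilage and endplate cells, on log scales, with 95% counting intervals as bars and colors for the roles; dotted lines mark 1.5-fold. The general chaperones lie left of 1 at 3 months except Canx in endplate, and in other cartilage they lie between 0.795 and 1.27 at 12–16 months.

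Age was read the same way, within a label and in other cartilage alone, as the ratio of the 12–16-month to the 3-month library. These comparisons share their libraries with the label comparisons above. Between the control libraries 4 of 41 genes were higher and 5 lower, against 12.3% and 11.1% of all genes. Lysyl oxidases stood at the top. The largest ratios were Lox (4.76, 3.39–6.63), Loxl2 (2.26, 1.92–2.66), Loxl3 (1.87, 1.47–2.36), Loxl1 (1.81, 0.878–3.44, on 51 and 12 UMIs) and Sec61a1 (1.32). The smallest were Loxl4 (0.362, 0.0964–0.961, on 85 and 4 UMIs), Pdia6 (0.490, 0.426–0.560), P3h1 (0.534, 0.321–0.840), Hspa5 (0.583, 0.531–0.639) and Sdf2l1 (0.619, 0.415–0.893). That of P3h1 rested on 288 and 20 UMIs and was 0.929 with cells weighted equally. With the mature bone rule first, which moved the 71954-UMI cell and 1 cell of the 3-month control library, Loxl2 became 0.695 (0.520–0.914) and Loxl3 0.871 (0.609–1.21), while Lox was at 4.70 (3.22–6.78). TMM factors moved the median of all genes from 0.03 to -0.10 on the log2 scale and, with that shift, gave 12 lower genes of the list in place of 5. The share of all genes with these factors is not given.

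Between the mutant libraries 6 of 40 genes were higher and 1 lower, against 8.65% and 9.3% of all genes. The largest were Loxl3 (2.47, 1.97–3.10), Loxl4 (1.71, 1.09–2.71), Pcolce (1.63, 1.19–2.22), Calr (1.62, 1.47–1.79) and Sec61b (1.59, 1.40–1.81), followed by P3h4 (1.59). In the 12–16-month library 1 cell held 66.7% of the Loxl4 UMIs, and its ratio was 0.990 with cells weighted equally. The lower end held no chaperone. The smallest were Ddit3 (0.608, 0.428–0.853), Plod1 (0.737), Pcolce2 (0.749, 0.710–0.790), Bmp1 (0.768) and P3h3 (0.832). All 9 general chaperones had ratios above 1 in the mutant libraries, from 1.08 (Pdia6) to 1.62 (Calr), whereas 8 of 9 were below 1 in the control libraries. In the mutant libraries the intervals of Pdia4 (0.899–1.34), Pdia6 (0.951–1.22), Sdf2l1 (0.942–1.96) and Dnajb11 (0.841–1.40) spanned 1. With cells weighted equally Dnajb11 was at 0.930. The shares of all genes above and below 1 are not given, and the median of all genes was -0.03 in the mutant and 0.03 in the control libraries on the log2 scale. These ratios divide by the 3-month levels described above, so the counts restate those levels and are no second pattern. Loxl3, a lysyl oxidase, was the 1 gene of 40 higher under both labels, against 1.89% of 8729 genes, and none was lower, against 1.67%, and its call in the control libraries ended with the mature bone rule first.

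Mature bone could be compared between labels at 12–16 months alone, a comparison added after the values were seen, from 9 mutant and 12 control cells. Of 27 genes measured, 12 were higher and 1 lower in the mutant library, against 21.1% and 13.4% of all genes. Serpinh1 was at 1528 and 2987 CPM, a ratio of 1.95 (1.76–2.17), on 12 and 9 cells. The client collagens were at 238694 and 193007 CPM. The largest ratios were P3h4 (4.07, 2.56–6.61), Fkbp10 (2.19, 1.61–2.98), Sec61b (2.14, 1.79–2.56), P3h1 (1.98, 1.32–2.96) and Serpinh1. With the mature bone rule first, which adds the 71954-UMI cell to the control sum, P3h4 was at 2.63 (1.78–3.90), P4ha1 at 1.31 and Xbp1 at 1.39, and 11 genes were higher and 4 lower. The share of all genes in that setting is not given. Sec61a1 (1.87), Pcolce (1.86), P4hb (1.79), Ppib (1.78), Bmp1 (1.77), Xbp1 (1.54) and P4ha1 (1.52) were also past 1.5-fold with the cell in cartilage.

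The general chaperones of mature bone did not pass in these sums, the 8 measured lying between 0.995 (Calr) and 1.38 (Pdia6). With cells weighted equally they ran from 0.935 (Pdia3) to 1.70 (Pdia6), and Hsp90b1 at 1.56 was also past 1.5-fold. Under that weighting Creb3l1 (1.61) and Mia3 (1.53) were past it too, and P3h1 (1.43) was not. The share of all genes with that weighting is not given. The dissociation list summed to 959 and 381 CPM there, and its part was not tested. The smallest ratios were Creb3l2 (0.592, 0.291–1.13, on 41 and 13 UMIs), Lox (0.969, 0.782–1.20), Calr, Pdia3 (1.01) and Hspa5 (1.02). TMM factors moved the median of all genes from 0.12 to -0.05 on the log2 scale and left 10 higher genes and 1 lower. For these counts too the share of all genes is not given. Counted per 1000 client collagen UMIs, Serpinh1 was at 6.40 in the 12–16-month control library and 15.5 in the 12–16-month mutant library. The 3-month control library was at 16.2, above both. The 3-month control library, at 2429 CPM of Serpinh1, lay between the 12–16-month libraries, and so did Fkbp10 at 288, Sec61b at 722 and P3h4 at 126 CPM, whereas Sec61a1 at 111 CPM lay below both and Pcolce at 766 CPM and Hspa5 at 579 CPM above both. The most any 1 cell held of Serpinh1, Fkbp10 or Sec61b in the 12–16-month sums was 34.9%, of Sec61b in the control library.

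**Figure D5:**
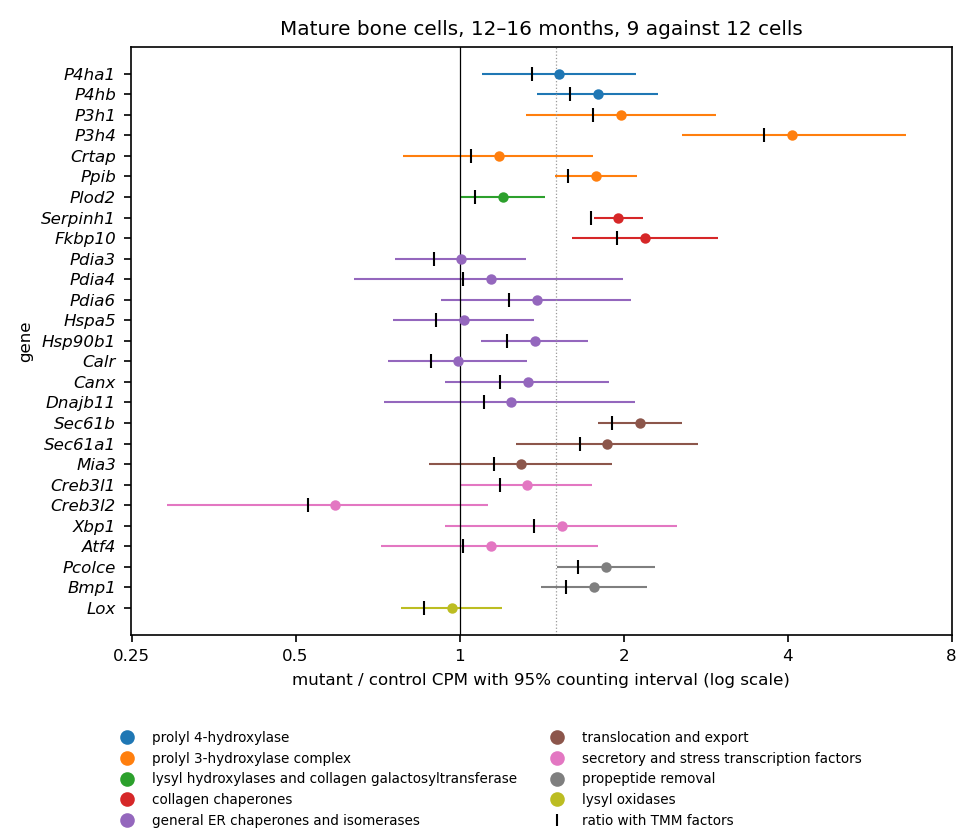
Ratio of mutant to control CPM in mature bone cells at 12–16 months for the 27 genes with at least 50 UMIs (points, with 95% counting intervals, colored by role), on a log scale; black ticks give the ratio with TMM factors and the dotted line marks 1.5. Serpinh1 at 1.95, Sec61b at 2.14 and P3h4 at 4.07 lie to its right, and the general chaperones lie left of it.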

How the data were processed

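The authors sorted tdTom+ cells from digested vertebrae T11–L2, with antibodies to set aside immune and endothelial cells, and sequenced them by 10x 3′ chemistry. Deposited were UMI counts by gene and barcode, made by the authors with Cell Ranger 8.0.0 on mm10 plus tdTomato. These counts were taken as not corrected for free RNA, whose part was not tested.

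A cell passed above 750 UMIs and 500 genes and below 7% mitochondrial UMIs. Passing libraries held 2154537 to 9429264 UMIs. Scrublet (rate 6%) called 19 doublets, which were kept. Cell types were rebuilt from UMI gates, since no annotation was used. UMIs of each library and gate of at least 5 cells gave 15 sums, fitted with edgeR 4.0.16 (R 4.3.3) by the quasi-likelihood test with TMM factors, filterByExpr, library and gate as terms (8 residual degrees of freedom) and Benjamini-Hochberg adjustment at 0.05. This test asks whether gates differ within libraries, and gates of 1 library share its mice. The replicates are single libraries of different conditions. DESeq2 1.42.0 was an alternative. SE is the log2 fold change divided by the root of its F.

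Label and age ratios are of CPM, with exact conditional binomial 95% intervals, at least 50 UMIs over both libraries and a limit of 1.5-fold. They have no replicate and no test. The fit was tested on simulated counts, where it missed most of the smaller changes set in mature bone. A gene that did not pass may thus still differ between gates. Promoters came from RefSeq (GRCm38.p6) and gene positions from GENCODE (GRCm38). Every gene of the list was named in the gate comparison, with full statistics for up to 3 of each role with the largest change in mature bone, and the 5 largest and 5 smallest ratios in each label or age comparison. The genes, lists and gates were chosen with earlier results of these data known. Python 3.11.15, numpy 2.4.6, scipy 1.17.1, pandas 2.3.3 and scanpy 1.11.5 were used.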

Additional observations from a re-analysis of the deposited data

Results flagged for a closer look

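Some ratios of mutant to control lay on opposite sides of 1 at 3 and at 12–16 months, with both counting intervals clear of 1. Each ratio compares 1 library with 1 library, and the difference between ages was not tested. In other cartilage Sec61b went from 0.655 to 1.26, Calr went from 0.584 to 1.27 and P3h1 went from 0.737 to 1.81, that is, the ER channel subunit, the lectin chaperone and the prolyl 3-hydroxylase were lower at 3 months and higher at 12–16 months. These were 3 of the 38 listed genes measured at both ages, a share close to that of all genes in that gate, 423 of 7250. With cells weighted equally the 12–16-month ratio of P3h1 was 1.01. In endplate cells Sec61b and Calr did the same, Sec61b from 0.590 to 1.89 and Calr from 0.625 to 1.54. There P4ha1 went from 0.771 to 1.44, Pdia6 went from 0.601 to 1.32 and Atf4 went from 0.469 to 2.21. Pcolce2, the propeptide enhancer of cartilage, went the other way, from 1.55 to 0.723. In endplate 6 of the 30 listed genes measured at both ages and 344 of all 3708 genes had opposite ratios, and the 12–16-month control library gave 12 endplate cells.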

How the results depend on the processing

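The label and age comparisons could not be paired because each condition had 1 library. The gate fit compared gates within libraries, with the library as a term. Of 41 genes under 13 alternatives, the gate fit kept direction and side of the threshold in 512 instances for mature bone, 502 for endplate and 471 for other bone and stroma. Of the calls, 12 of 16, 5 of 10 and 13 of 22 held under all 13. When 1 library was left out, mature bone gave 9 to 13 higher genes (11 with all) and 5 to 5 lower (5), endplate 0 to 3 higher (2) and 6 to 7 lower (8), and other bone and stroma 2 to 5 higher (3) and 14 to 17 lower (19). No endplate gene stayed higher with gates on scaled UMIs (0 in place of 2). In that setting the label comparison of endplate counted 10 genes past the limit in place of 19 at 3 months, and 4 in place of 9 at 12–16 months. In other bone and stroma 5 genes were higher without TMM factors, 5 without the filter on low counts, and 6 with Ptprc cells left out, where Sec61b turned to -0.51; the cause was not tested. TMM factors changed the label count of other cartilage at 12–16 months from 5 to 3 and the age count of the control libraries from 9 to 16. A limit of 2-fold, stricter by construction, left 6 of 17, 1 of 5, 4 of 19, 4 of 9, 4 of 9, 1 of 7 and 3 of 13 genes for the label at 3 and 12–16 months in other cartilage, the label at 3 and 12–16 months in endplate, age in the control and mutant libraries, and the label in mature bone. Most counts under an alternative stand without the share of all genes in that setting, so they show only how the calls moved. Precision is limited by small sums, with 9 to 14 cells in each mature bone sum and 12 endplate cells in the 12–16-month control library.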
